A study of Mus musculus with 20 samples.

Results

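Liver X receptor targets and genes of cholesterol efflux were described in the livers of obese mice given rosuvastatin, geranylgeraniol (GGOH), both or neither. The set was chosen by gene symbol and holds 10 of the 34933 named genes measured: the receptors Nr1h2 and Nr1h3, the transporters Abca1, Abcg1, Abcg5 and Abcg8, the phospholipid enzyme Lpcat3, the lipoprotein receptor Scarb1, and the plasma proteins Lcat and Pltp. Poly(A) RNA of whole liver was sequenced from 20 wild-type mice with diet-induced obesity, in 4 groups of 5. The combination group received rosuvastatin and GGOH, 1 group received rosuvastatin alone, 1 received GGOH alone, and the vehicle group received neither compound. All 4 groups share the diet-induced obesity and the wild-type genotype. The labels give no dose, duration, sex, age or batch, and no lean group was analysed here.

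Liver X receptors are nuclear receptors that bind oxysterols and act as heterodimers with retinoid X receptors on response elements of the DR4 type, a direct repeat of a hexamer with a spacer between its copies. Their target genes move cholesterol out of cells onto high density lipoprotein (HDL), secrete sterols into bile and remodel phospholipids. Rosuvastatin is a statin and blocks the mevalonate pathway, which feeds both sterols and isoprenoids, and GGOH is an isoprenoid alcohol that cells can convert into geranylgeranyl diphosphate.

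2 promoters from RefSeq on the GRCm38.p6 build are shown, for the closest DR4 match among the transporters with a window and for the start region that Abcg5 and Abcg8 share. Each window runs from 250 bases before to 50 bases after an annotated start site and is printed 5′ to 3′ on the strand of the gene. In the Abca1 window, chr4:53159846-53160145 on the minus strand, the capitals mark the closest match to the DR4 letters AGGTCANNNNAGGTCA. In the Abcg8 window, chr17:84682871-84683170 on the plus strand, the capitals mark each AGATAA, the GATA motif, on either strand.
Abca1: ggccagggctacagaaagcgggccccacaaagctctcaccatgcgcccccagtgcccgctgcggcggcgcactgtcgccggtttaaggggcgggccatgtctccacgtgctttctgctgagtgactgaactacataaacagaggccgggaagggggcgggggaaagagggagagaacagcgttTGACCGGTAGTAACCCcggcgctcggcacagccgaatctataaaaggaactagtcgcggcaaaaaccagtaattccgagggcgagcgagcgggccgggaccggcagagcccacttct
Abcg8: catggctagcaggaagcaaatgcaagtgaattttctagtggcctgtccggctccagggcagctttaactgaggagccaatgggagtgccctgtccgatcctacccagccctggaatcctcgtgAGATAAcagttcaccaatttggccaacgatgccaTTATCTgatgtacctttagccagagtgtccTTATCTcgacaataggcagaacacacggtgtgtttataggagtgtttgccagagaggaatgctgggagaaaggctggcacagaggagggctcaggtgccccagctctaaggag
The Abca1 match, which reads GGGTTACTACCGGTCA on the opposite strand, starts 67 bases before the start site and differs from the DR4 letters at 3 of the 12 scored bases. A window was held for 8 of the 10 members, 10 windows in all, and Abcg1 and Scarb1 had none. With up to 2 mismatches, the DR4 letters were in 3.02% of all 32851 promoter windows of that length and in 0 of the 10 member windows. With 3 mismatches, a limit set after the first count was seen, they were in 21.9% of all windows and in those of Abca1 and Lcat. The GC box GGGCGG was in 35.7% of all windows and in those of Abca1, Lpcat3 and Pltp. AGATAA was in 11.2% of all windows, in those of Abcg5 and Lcat and in 1 of the 2 Abcg8 windows. The DR4, GC box and GATA searches read both strands, and their matches overlapped in none of the windows printed. RefSeq gives Abcg8 2 start sites on chromosome 17. That at 84683121 has 109 bases between it and the Abcg5 start site at 84683011, on the opposite strand. The windows of these 2 sites therefore share 209 bases, and each holds the same stretch with AGATAA at 3 places. The other Abcg8 start site, at 84676302, has a window of its own without AGATAA.

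The libraries held between 8548120 and 18373913 estimated counts in named genes. Mitochondrial transcripts took 8.06 to 29.2% of them, with the highest share in the combination group. The sum of 5 hepatocyte markers was between 27081 and 75970 TPM (transcript abundance scaled for transcript length and library depth) in every library, so the liver label held. Sums of 8 Kupffer cell markers overlapped between groups, at 180 to 303 TPM in combination mice, 184 to 397 in rosuvastatin mice, 116 to 481 in GGOH mice and 154 to 302 in vehicle mice. Across genes, the deviation of a library from the mean of all libraries was correlated with transcript GC content, and this GC correlation was positive in all 10 mice given rosuvastatin, with r from 0.0451 to 0.204 in combination mice and from 0.0210 to 0.288 in rosuvastatin mice. It ran from -0.318 to 0.0942 in GGOH mice and from -0.318 to 0.312 in vehicle mice, where 1 GGOH mouse and vehicle mice 1 and 3 were positive. Because the tissue is a mix of cells, fewer cells of a type and less RNA per cell cannot be told apart.

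All 10 members were detected in every library, and all passed the filter on low counts. Averaged over the 20 mice, their levels ran from 220.3 TPM for Lcat through 71.4 for Nr1h3, 37.2 for Scarb1, 26.9 for Pltp, 25.1 for Lpcat3, 12.1 for Abcg5, 9.35 for Nr1h2, 7.92 for Abcg8 and 7.28 for Abca1 to 1.12 for Abcg1. Most neighbours in that order kept it within single mice: Lcat was above Nr1h3, Lpcat3 above Abcg5 and Abca1 above Abcg1 in 20 of 20 mice. Pltp and Lpcat3 did not separate, with Pltp the higher in 12 of 20 mice, nor did Abcg8 and Abca1, with Abcg8 the higher in 12 of 20. Abcg1 had the fewest reads, 25 to 102 estimated counts per library, and Lcat the most, 2133 to 7143.

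In TPM, the spread between vehicle mice was the widest of the 4 groups, as a coefficient of variation, for all members but Nr1h3. Vehicle mouse 1 held the highest level of 7 members among all 20 mice and vehicle mouse 2 the lowest level of 5. The coefficient of variation over vehicle mice was 87.9% for Lpcat3, 88.9% for Pltp, 86.9% for Abcg8, 83.9% for Nr1h2 and 77.2% for Scarb1, against 9.56% for Nr1h3. In the GGOH group the same genes varied by 29.9% for Lpcat3, 36.1% for Pltp, 27.7% for Abcg8, 21.7% for Nr1h2 and 12.8% for Scarb1, against 10.2% for Nr1h3. This order depends on the scale. In CPM, counts scaled by a normalization factor of each library (TMM), Abca1 ran from 77.0 to 92.7 in vehicle mice and from 40.4 to 81.2 in rosuvastatin mice. Nr1h3 ran from 77.9 to 177 CPM in vehicle mice, and Lpcat3 from 23.1 to 80.7.

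**Figure D1:**
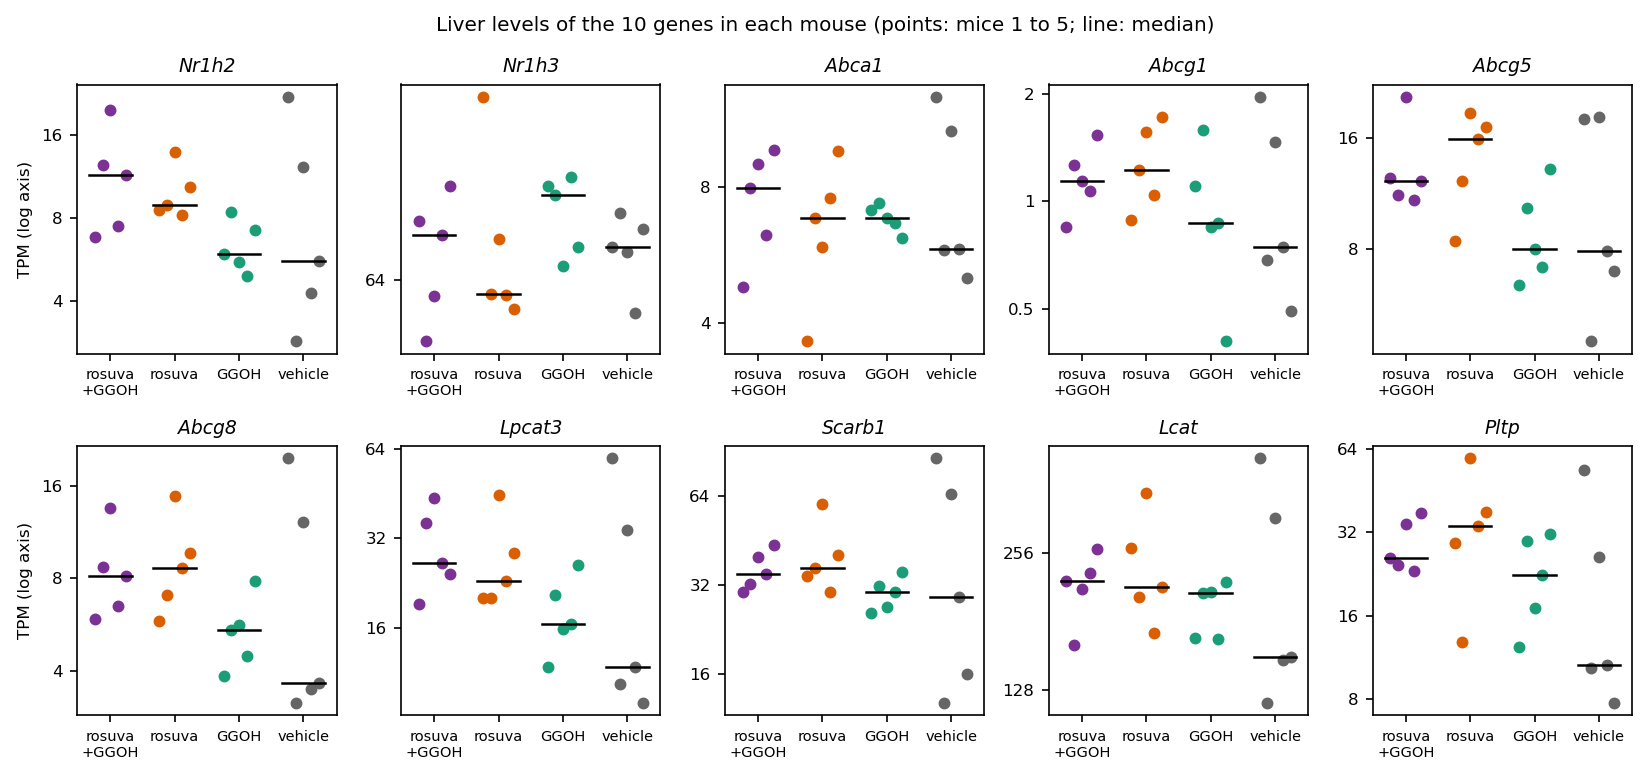
Level of each of the 10 genes in each mouse, as TPM on a log axis, with rosuvastatin plus GGOH, rosuvastatin, GGOH and vehicle from left to right; points are mice 1 to 5 and lines are group medians. Vehicle mice spread most for genes such as Lpcat3, from 8.92 to 59.5 TPM, and the 4 groups overlap for every gene.

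The 2 receptors differed in level and in behaviour. Nr1h3 encodes LXR alpha, the form concentrated in liver, and lies on chromosome 2 from 91184061 to 91202834 (GENCODE M21, GRCm38). It stood at 74.7, 54.5, 61.3, 71.9 and 81.6 TPM in combination mice 1 to 5, and at 103, 61.7, 71.1, 61.5 and 59.2 TPM in rosuvastatin mice. In GGOH mice it stood at 81.7, 79.8, 66.3, 83.7 and 69.7 TPM, against 69.7, 76.2, 68.8, 58.7 and 73.1 TPM in vehicle mice. Rosuvastatin mouse 1 stood above all other mice, and the remaining 19 lay between 54.5 and 83.7 TPM. The fitted log2 fold change was -0.20 ± 0.23 (SE, n = 5 per group) for the combination against vehicle, -0.19 ± 0.23 for rosuvastatin against vehicle and 0.00 ± 0.23 for GGOH against vehicle. By the edgeR quasi-likelihood test with Benjamini-Hochberg adjustment over 12789 genes, these had adjusted p-values of 0.842, 0.973 and 1.00.

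Nr1h2 encodes LXR beta, the widely expressed form, and lies on chromosome 7 from 44549616 to 44553951. It stood at 6.86, 12.5, 19.7, 7.50 and 11.4 TPM in combination mice 1 to 5, and at 8.54, 8.95, 13.9, 8.23 and 10.4 TPM in rosuvastatin mice. In GGOH mice it stood at 5.92, 8.39, 5.56, 4.93 and 7.23 TPM, against 21.95, 2.87, 12.3, 4.31 and 5.61 TPM in vehicle mice. Vehicle mice 1 and 3 were high and the other 3 low, so that the vehicle range enclosed those of all 3 treated groups. The combination exceeded GGOH by 0.65 ± 0.24 on the log2 scale (unadjusted p = 0.0147, edgeR adjusted p = 0.348), and all but combination mouse 1 and combination mouse 4 stood above every GGOH mouse. Against vehicle the log2 fold change was 0.40 ± 0.24 for the combination, 0.27 ± 0.24 for rosuvastatin and -0.24 ± 0.24 for GGOH, with edgeR adjusted p-values of 0.817, 0.973 and 1.00. The ratio of Nr1h3 to Nr1h2 in TPM had medians of 7.16 in combination mice, 6.89 in rosuvastatin mice, 11.9 in GGOH mice and 13.0 in vehicle mice. In vehicle mice alone it ran from 3.17 to 26.5.

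Abca1 and Abcg1 encode the transporters that pass cellular cholesterol to lipid-poor apolipoprotein A-I and to HDL particles. Abca1, on chromosome 4 from 53030787 to 53159895, stood at 4.80, 7.98, 9.03, 6.26 and 9.67 TPM in combination mice 1 to 5, and at 3.63, 6.83, 5.885, 7.56 and 9.66 TPM in rosuvastatin mice. With GGOH alone Abca1 stood at 7.13, 7.38, 6.83, 6.68 and 6.19 TPM, against 12.7, 5.80, 10.7, 5.83 and 5.03 TPM in vehicle mice. Its GGOH values were the tightest of any member, with a coefficient of variation of 6.64%. The log2 fold change of rosuvastatin against vehicle was -0.36 ± 0.18 (95% interval -0.74 to 0.01, unadjusted p = 0.0584, edgeR adjusted p = 0.973). Its sign followed the group means, 6.71 ± 2.21 TPM with rosuvastatin and 8.01 ± 3.46 TPM with vehicle (SD, n = 5 each), while the medians in TPM were ordered the other way, 6.83 TPM with rosuvastatin and 5.83 TPM with vehicle. In CPM with the TMM factor, the scale of the fit, the medians had the order of the fit, 78.7 with rosuvastatin and 81.0 with vehicle. For the combination against rosuvastatin Abca1 had the most positive estimate of the set, 0.21 ± 0.18.

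Abcg1, on chromosome 17 from 31057675 to 31117988, was the member with the lowest level. It ran from 0.849 to 1.53 TPM in combination mice (median 1.14), from 0.888 to 1.72 in rosuvastatin mice (median 1.23), from 0.405 to 1.58 in GGOH mice (median 0.866) and from 0.491 to 1.96 in vehicle mice (median 0.743). Its 5 pairwise estimates lay between -0.08 and 0.21 on the log2 scale, each with an SE of 0.25.

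Abcg5 and Abcg8 encode the half-transporters that pair to export cholesterol and plant sterols from hepatocytes into bile. Abcg5, on chromosome 17 from 84658234 to 84683011, stood at 12.5, 11.2, 20.8, 10.9 and 12.3 TPM in combination mice 1 to 5, and at 8.40, 12.3, 18.7, 16.0 and 17.2 TPM in rosuvastatin mice. In GGOH mice it stood at 6.40, 10.3, 8.003, 7.15 and 13.2 TPM, against 18.1, 4.50, 18.3, 7.92 and 6.98 TPM in vehicle mice. As with Nr1h2, vehicle mice 1 and 3 were high and the other vehicle mice low. Abcg5 was higher in combination than in GGOH mice by 0.46 ± 0.22 on the log2 scale (unadjusted p = 0.0513, edgeR adjusted p = 0.357), with a 95% interval from -0.0029 to 0.92.

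Abcg8, on chromosome 17 from 84676302 to 84700333, stood at 5.93, 8.70, 13.6, 6.53 and 8.14 TPM in combination mice 1 to 5, and at 5.83, 7.09, 14.9, 8.62 and 9.69 TPM in rosuvastatin mice. With GGOH alone Abcg8 stood at 3.87, 5.44, 5.65, 4.48 and 7.83 TPM, against 19.6, 3.16, 12.2, 3.50 and 3.67 TPM in vehicle mice. The 3 lowest of all 20 mice were vehicle mice 2, 4 and 5, and the highest was vehicle mouse 1. The combination exceeded GGOH by 0.56 ± 0.25 (unadjusted p = 0.0342, edgeR adjusted p = 0.348). GGOH against vehicle gave -0.39 ± 0.25 (edgeR adjusted p = 1.00), although the median was 5.44 TPM in GGOH mice and 3.67 TPM in vehicle mice. In CPM with the TMM factor the median was 17.7 in GGOH mice and 19.0 in vehicle mice.

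The partners moved together from mouse to mouse. The ratio of Abcg5 to Abcg8 in TPM had a median of 1.63 over the 20 mice and a coefficient of variation of 18.8%, against 39.5% for Abcg5 and 54.2% for Abcg8. In vehicle mice it ran from 0.922 to 2.26, with a coefficient of variation of 31.7%. Their log2 CPM (library-scaled counts) correlated with Pearson r = 0.85 and Spearman rho = 0.84 over 20 mice (permutation, adjusted over 45 pairs, p = 0.000112 and p = 0.000337). Without the 2 mice farthest from the Abcg5 median r was 0.80, and over deviations from the group means it was 0.80. It was 0.66 in the 13 mice with a positive GC correlation and 0.68 in the other 7. Such closeness was not particular to the partners: Abcg8 correlated with Nr1h2 at r = 0.86, and over deviations from the group means its closest member was Lpcat3, at 0.905. The genes share 82 exonic bases on opposite strands, 3.02% of the exonic bases of Abcg5, and reads from there cannot be told apart if counting ignored strand, which is not stated.

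Lpcat3 encodes the acyltransferase that places polyunsaturated chains into phosphatidylcholine. It lies on chromosome 6 from 124663027 to 124704418 and shares 10.2% of its exonic bases with Emg1 on the opposite strand. It stood at 19.2, 36.0, 43.8, 26.4 and 24.2 TPM in combination mice 1 to 5, and at 20.1, 20.05, 44.6, 22.9 and 28.5 TPM in rosuvastatin mice. In GGOH mice it stood at 11.8, 20.6, 15.8, 16.4 and 26.1 TPM, against 59.5, 10.3, 34.1, 11.8 and 8.92 TPM in vehicle mice. Again vehicle mouse 1 was the highest of all mice and vehicle mouse 5 the lowest. The combination exceeded GGOH by 0.54 ± 0.29 on the log2 scale (unadjusted p = 0.0794, edgeR adjusted p = 0.382).

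Pltp encodes phospholipid transfer protein, which moves phospholipids between plasma lipoproteins and HDL. It lies on chromosome 2 from 164839518 to 164857711, and 19.3% of its exonic bases overlap Ctsa on the opposite strand. It stood at 25.8, 24.3, 34.2, 23.1 and 37.4 TPM in combination mice 1 to 5, and at 29.2, 12.9, 59.2, 33.6 and 37.7 TPM in rosuvastatin mice. With GGOH alone Pltp stood at 12.3, 29.9, 17.1, 22.5 and 31.5 TPM, against 53.7, 10.4, 25.98, 10.6 and 7.76 TPM in vehicle mice. All treated mice stood above vehicle mice 2, 4 and 5, while vehicle mouse 1 exceeded all treated mice but rosuvastatin mouse 3. Pltp had the most positive estimate of the set for rosuvastatin against vehicle, 0.65 ± 0.30 on the log2 scale (unadjusted p = 0.0415, edgeR adjusted p = 0.973). For the combination against vehicle it was 0.54 ± 0.30 (unadjusted p = 0.0835, edgeR adjusted p = 0.817).

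Scarb1 encodes scavenger receptor BI, which takes up cholesteryl esters from HDL, and lies on chromosome 5 from 125277087 to 125341094. It ran from 30.3 to 43.7 TPM in combination mice (median 35.0), from 30.3 to 60.3 in rosuvastatin mice (median 36.6), from 25.8 to 35.4 in GGOH mice (median 30.3) and from 12.8 to 86.2 in vehicle mice (median 29.2). Each treated range lay inside the vehicle range. GGOH against vehicle gave -0.37 ± 0.23 on the log2 scale (edgeR adjusted p = 1.00).

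Lcat encodes the plasma enzyme that esterifies cholesterol on HDL, and lies on chromosome 8 from 105939551 to 105943382. It ran from 161 to 262 TPM in combination mice (median 222), from 171 to 347 in rosuvastatin mice (median 216), from 165 to 221 in GGOH mice (median 209.7) and from 120 to 415 in vehicle mice (median 151). All 5 pairwise estimates for Lcat lay between -0.16 and 0.10 on the log2 scale, each with an SE of 0.18.

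**Figure D2:**
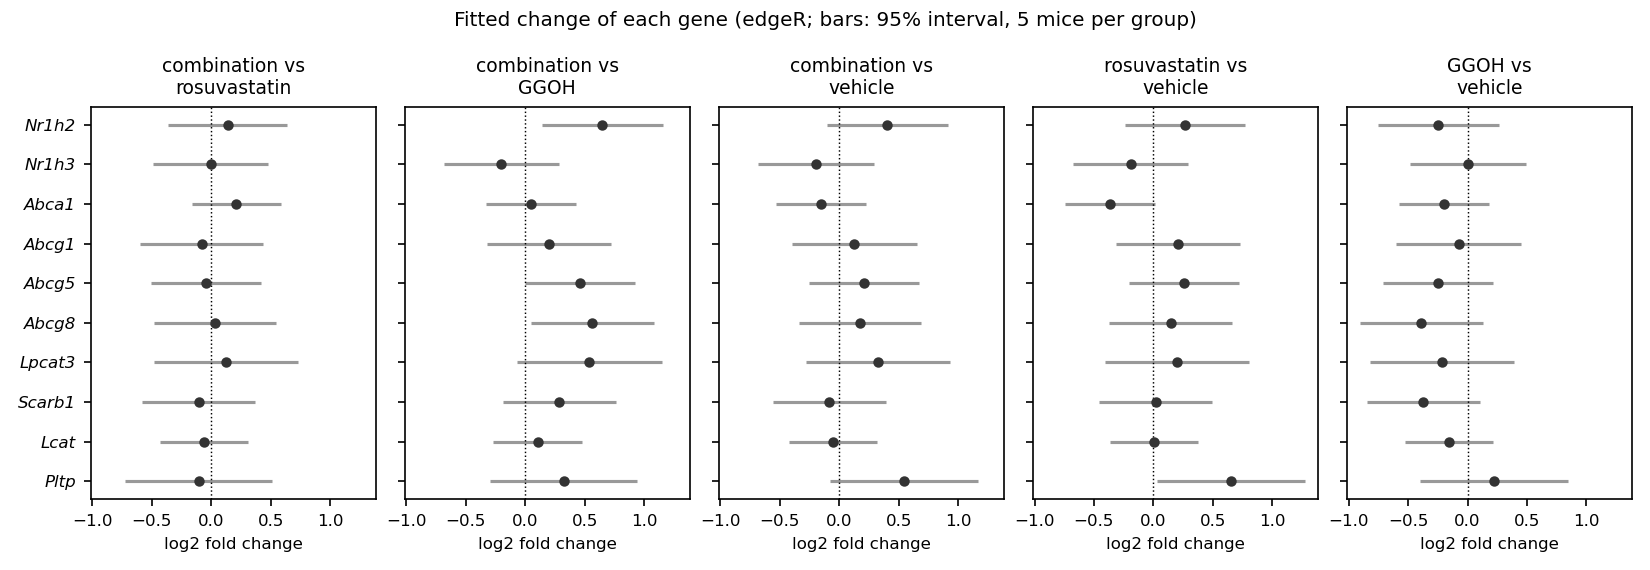
Fitted log2 fold change of each of the 10 genes in the 5 pairwise comparisons; points are edgeR estimates and bars their 95% intervals, with 5 mice per group. Most bars cross 0; the exceptions are Nr1h2 and Abcg8 for the combination against GGOH and Pltp for rosuvastatin against vehicle.

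The comparisons below share groups, those against vehicle the same 5 vehicle mice, so their estimates are not independent. Rosuvastatin against vehicle asks what the statin alone did. None of the 10 members passed the edgeR quasi-likelihood test (adjusted p of 0.973 or more), and 8 of 10 had positive estimates, with a median of 0.17. Over all 12789 genes tested, 0% passed, 3.69% had an unadjusted p under 0.05 and 47.3% were higher, with a median of -0.02. Among the members only Pltp had an unadjusted p under 0.05. By DESeq2, 2 of all genes passed here and none of the members. The members' median was 0.33, 0.05, 0.29, 0.07 and 0.08 when vehicle mouse 1, 2, 3, 4 or 5 was left out, 0.26 without rosuvastatin mouse 1 and 0.10 without rosuvastatin mouse 3. It was 0.41 with voom quality weights, described further on, and -0.10, with 4 of 10 higher, with the GC correlation as a covariate.

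GGOH against vehicle asks what the isoprenoid alone did. Here 2 of 10 members were higher by the fit, Pltp at 0.22 ± 0.30 and Nr1h3 at 0.00 ± 0.23, and the median was -0.21. The group medians in TPM were higher in GGOH mice than in vehicle mice for all 10, so that median TPM and fit differed in direction for 8 members. The group means in TPM had the direction of the fit for all 10. TPM carry no TMM factor, which the fit uses. In CPM with that factor the median was higher in GGOH mice for Lpcat3 (34.5 against 27.1) and Pltp (36.4 against 21.7). It was lower for the other members, such as Abca1 (71.1 against 81.0) and Lcat (240 against 274). For all members but Nr1h3, vehicle mice 1 and 3 stood above the vehicle mean and the other 3 vehicle mice below it. After removal of vehicle mouse 1 and of combination mice 2 and 3, 4 of 10 members were higher by the fit and their median was -0.08, as without vehicle mouse 1 alone. The median was -0.31 without vehicle mouse 2, -0.12 without vehicle mouse 3 and -0.07 with the GC covariate, and it was positive, 0.02 with 6 of 10 higher, with quality weights. No member had an unadjusted p under 0.05 with all mice, against 2.86% of all genes, of which 0% passed the adjusted threshold and 46.9% were higher.

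The combination against rosuvastatin asks what GGOH changed under the statin. The members' estimates lay between -0.11 for Pltp and 0.21 for Abca1, with 4 of 10 higher and a median of -0.03, and none had an unadjusted p under 0.05. Of all genes, 52.6% were higher, 1.69% had an unadjusted p under 0.05 and 0% passed. The median was positive without combination mouse 2, at 0.01, without rosuvastatin mouse 3, at 0.02, without rosuvastatin mouse 4, at 0.01, and with quality weights, at 0.03. It was -0.09 without combination mouse 1.

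The combination against vehicle gave 6 of 10 members higher, a median of 0.15 and no unadjusted p under 0.05. All genes gave 50.8% higher, 5.5% with an unadjusted p under 0.05 and 0% past the adjusted threshold. The group medians in TPM were higher in combination mice than in vehicle mice for all 10 members. In CPM with the TMM factor those of Nr1h3 (114 against 129) and Lcat (270 against 274) were lower in combination mice, and the others higher. The fitted median was 0.26, 0.05, 0.26, 0.08 and 0.06 when vehicle mouse 1, 2, 3, 4 or 5 was left out, and 0.10 and 0.08 without combination mouse 2 or 3. With quality weights it was 0.32, and with the GC covariate -0.04, with 4 of 10 higher.

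The combination against GGOH asks what the statin did in the presence of GGOH, in mice that the comparison of rosuvastatin with vehicle did not use. In it 9 of 10 members were higher, Nr1h3 being the exception at -0.20 ± 0.23, and the median was 0.30. Nr1h2 and Abcg8 had unadjusted p-values under 0.05. Of all genes, 50.9% were higher, 14% had an unadjusted p under 0.05, which for 10 genes is between 1 and 2, and 0% passed the adjusted threshold. The median was 0.25 without GGOH mouse 3, 0.42 without GGOH mouse 5 and between these when any other mouse was left out. With quality weights 8 of 10 members were higher and the median was 0.35. With the GC covariate 5 of 10 members were higher and the median was -0.02.

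The interaction asks whether the statin effect differed with GGOH. For the members it lay between -0.33 for Pltp and 0.42 for Abcg8, with 7 of 10 positive and a median of 0.24, and none had an unadjusted p under 0.05. Abca1 had the smallest, with an estimate of 0.41 ± 0.26 (unadjusted p = 0.126, edgeR adjusted p = 0.999). Over all genes 52.3% were positive, 2.89% had an unadjusted p under 0.05 and 0% passed. The median was 0.03, 0.37 and 0.07 when vehicle mouse 1, 2 or 3 was left out and 0.36 without GGOH mouse 5. It was 0.05 with the GC covariate and -0.04, with 4 of 10 positive, with quality weights.

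Averaged over GGOH, the 10 mice given rosuvastatin were compared with the 10 not given it. Nr1h2 ran from 6.86 to 19.7 TPM with rosuvastatin (median 9.66) and from 2.87 to 21.95 TPM without it (median 5.76). Pltp ran from 12.9 to 59.2 TPM with rosuvastatin (median 31.4) and from 7.76 to 53.7 TPM without it (median 19.8). Abcg5 ran from 8.40 to 20.8 TPM with rosuvastatin (median 12.4) and from 4.50 to 18.3 TPM without it (median 7.96). The groups overlapped for each. The mice without rosuvastatin that reached the high end were vehicle mice 1 and 3 for Nr1h2 and Abcg5, and vehicle mouse 1 followed by GGOH mice 5 and 2 for Pltp. The log2 difference was 0.46 ± 0.17 for Nr1h2 (unadjusted p = 0.0146, edgeR adjusted p = 0.327). It was 0.49 ± 0.21 for Pltp (unadjusted p = 0.0319, edgeR adjusted p = 0.331) and 0.36 ± 0.16 for Abcg5 (unadjusted p = 0.0335, edgeR adjusted p = 0.333). The other 7 members had unadjusted p-values of 0.0566 or more. Over all 10 members, 8 were higher, with a median of 0.28, and Abca1 and Nr1h3 were lower, at -0.16 ± 0.13 and -0.20 ± 0.16. Of all genes, 51.8% were higher, 14.4% had an unadjusted p under 0.05 and 0% passed.

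Averaged over rosuvastatin, the 10 mice given GGOH were compared with the 10 not given it. The members' estimates lay between -0.24 for Scarb1 and 0.06 for Pltp, with 2 of 10 higher and a median of -0.07, and none had an unadjusted p under 0.05. Of all genes, 48.4% were higher, 1.7% had an unadjusted p under 0.05, and 0.00782% passed, which is 1 gene, Cyp2b10, with a log2 difference of 2.37 ± 0.35 (edgeR adjusted p = 0.0155). Cyp2b10 encodes a cytochrome P450 and is not a member. The members' median was -0.04 without vehicle mouse 1, -0.13 without vehicle mouse 2, -0.04 without GGOH mouse 4, and -0.12 without each of vehicle mice 4 and 5 and GGOH mice 2 and 5. It was -0.04 with the GC covariate and -0.01 with quality weights.

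The estimates for the statin depended on how libraries were weighted. With voom quality weights, which give each library a weight from its own scatter, vehicle mouse 1 had the lowest weight of all 20, 0.175, and vehicle mouse 3 the next, 0.424. In that fit 5 of the 10 members passed for rosuvastatin averaged over GGOH, against 12.5% of all genes. They were Nr1h2 at 0.56 (limma adjusted p = 0.0254), Abcg8 at 0.53 (limma adjusted p = 0.0254), Lpcat3 at 0.54 (limma adjusted p = 0.0273), Pltp at 0.63 (limma adjusted p = 0.0331) and Abcg5 at 0.45 (limma adjusted p = 0.0396). Scarb1 at 0.34 had a limma adjusted p of 0.0590. After removal of vehicle mouse 1 and of combination mice 2 and 3, the pair with the highest mitochondrial shares, no member passed in edgeR, and the smallest adjusted p, 0.247, was that of Nr1h2 at 0.53 and of Pltp at 0.67.

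The same estimates also moved with the GC correlation of the libraries. Over the 20 mice, log2 CPM followed it with r = 0.94 for Nr1h2, 0.91 for Abcg8, 0.90 for Lpcat3, 0.82 for Scarb1, 0.77 for Pltp, 0.75 for Abcg5 and -0.70 for Nr1h3. The permutation p-values of these 7, adjusted over 60 relations of 10 genes with 6 measures, ran from 0.00015 to 0.00413, where 1e-05 unadjusted is the smallest that 100000 permutations can give. The Spearman rho was 0.93 for Nr1h2, 0.89 for Abcg8, 0.90 for Lpcat3, 0.82 for Scarb1, 0.67 for Pltp, 0.69 for Abcg5 and -0.76 for Nr1h3, with adjusted permutation p-values from 0.0002 to 0.0111. Lcat, at r = 0.44, Abcg1, at 0.29, and Abca1, at -0.10, did not pass, with adjusted permutation p-values of 0.157, 0.412 and 0.722. The share of all genes that followed the GC correlation in this way was not computed. Without the 2 mice farthest from the median of the GC correlation, r lay between 0.74 and 0.94 for the 6 positive genes and was -0.80 for Nr1h3. In the 13 mice with a positive GC correlation r was 0.90 for Nr1h2, 0.80 for Lpcat3, 0.73 for Abcg8, 0.65 for Scarb1 and -0.74 for Nr1h3, but 0.33 for Pltp and 0.27 for Abcg5. In the 7 with a negative one, all without rosuvastatin, r was 0.78 for Nr1h2, 0.73 for Pltp and 0.55 for Lpcat3, between 0.27 and 0.28 for Abcg8, Scarb1 and Abcg5, and -0.16 for Nr1h3. GC content of the members' own transcripts was 60.8% for Nr1h2, 57.3% for Pltp, 57.0% for Nr1h3, 55.5% for Lcat and 55.1% for Scarb1. It was 53.7% for Abcg8, 53.3% for Abcg1, 52.9% for Lpcat3, 50.9% for Abcg5 and 48.8% for Abca1. Its part in these relations was not tested.

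**Figure D3:**
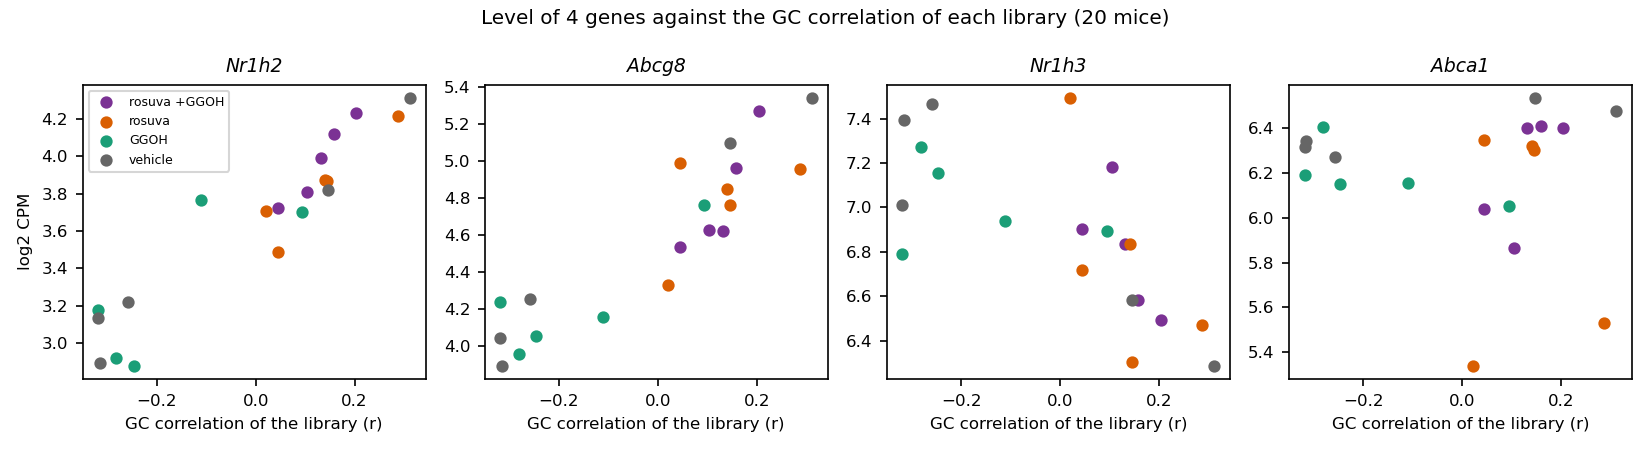
log2 CPM of Nr1h2, Abcg8, Nr1h3 and Abca1 against the GC correlation of each library, with colours for rosuvastatin plus GGOH, rosuvastatin, GGOH and vehicle. Nr1h2 and Abcg8 climb with it (r = 0.94 and 0.91), Nr1h3 falls (r = -0.70), and Abca1 shows no line (r = -0.10); vehicle mice lie at both ends.

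With the GC correlation as a covariate in edgeR, added after the data were seen, the difference with rosuvastatin averaged over GGOH was -0.01 for Nr1h2, 0.01 for Pltp, 0.05 for Abcg5, -0.11 for Abcg8 and -0.17 for Lpcat3. The median over the members became -0.06, with 4 of 10 higher. Scarb1 was at -0.25 (unadjusted p = 0.0495, edgeR adjusted p = 0.491) and Nr1h3 at 0.21. All 10 mice given rosuvastatin had a positive GC correlation, so the covariate also carries part of the difference between the groups, and the statin and the GC correlation cannot be fully told apart.

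**Figure D4:**
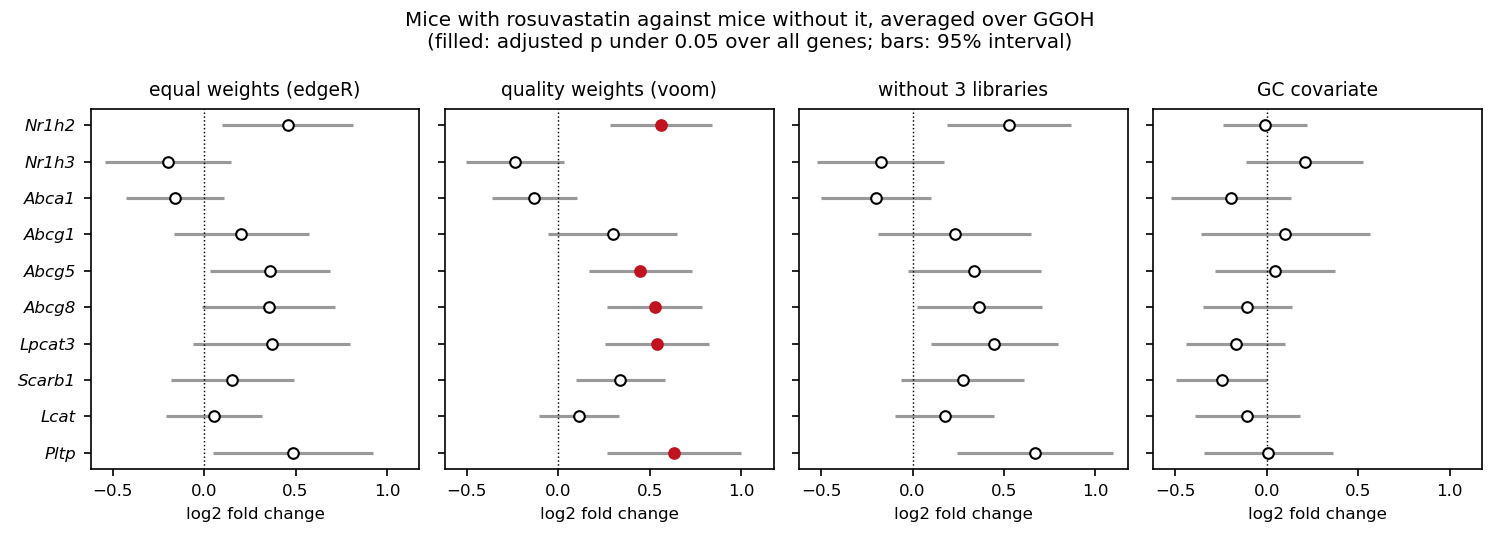
log2 difference between the 10 mice given rosuvastatin and the 10 not given it, averaged over GGOH, for each gene under 4 fits: edgeR with equal weights, voom with quality weights, edgeR without 3 libraries, and edgeR with the GC correlation as covariate. Filled points passed the adjusted threshold of 0.05 and bars are 95% intervals; 5 genes passed with quality weights, and in the fit with the covariate Nr1h2 and Pltp lie at -0.01 and 0.01.

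Among the members, 22 of the 45 pairs were correlated over the 20 mice (Pearson r of log2 CPM, permutation p adjusted over 45 pairs under 0.05), 16 positively and 6 negatively. The share of correlated pairs among all genes was not computed, so the count does not set the members apart from other genes. All 6 negative pairs held Nr1h3. The coefficients ran from -0.81 for Nr1h3 with Lpcat3 to 0.91 for Abcg8 with Lpcat3, both with an adjusted permutation p of 7.5e-05, and Spearman rho was -0.79 and 0.90. Without the 2 farthest mice these were -0.84 and 0.87. Within the 13 mice of positive GC correlation they were -0.72 and 0.78, and within the other 7 they were -0.80 and 0.65. The receptors were opposed in log2 CPM, at r = -0.70 for Nr1h2 with Nr1h3 (adjusted permutation p = 0.00171) and rho = -0.72, with r of -0.65 without the 2 farthest mice, -0.58 in the 13 mice and -0.46 in the 7. The negative pairs of Nr1h3 are given on that scale only, and its values depend on it. In vehicle mice 1 to 5 Nr1h3 stood at 77.9, 168, 95.6, 129 and 177 CPM, but at 69.7, 76.2, 68.8, 58.7 and 73.1 TPM.

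Abca1 and Abcg1 were in none of the 22 pairs, and their own correlation was r = 0.24 (adjusted permutation p = 0.370). Lcat was in 1, with Scarb1, at r = 0.71 (adjusted permutation p = 0.00142) and rho = 0.71, and r was 0.57 without the 2 farthest mice. Over deviations from the group means 22 pairs passed as well, and after regression of those deviations on the GC correlation 3 passed: Abcg5 with Abcg8 at 0.63, Scarb1 with Lcat at 0.64 and Abca1 with Lcat at -0.68. The median r over all 45 pairs was then -0.01, against 0.27 before. The permutations behind both counts shuffled the deviations as free values, although group means, and then a slope, had been removed. Their p-values therefore tend to be too small.

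**Figure D5:**
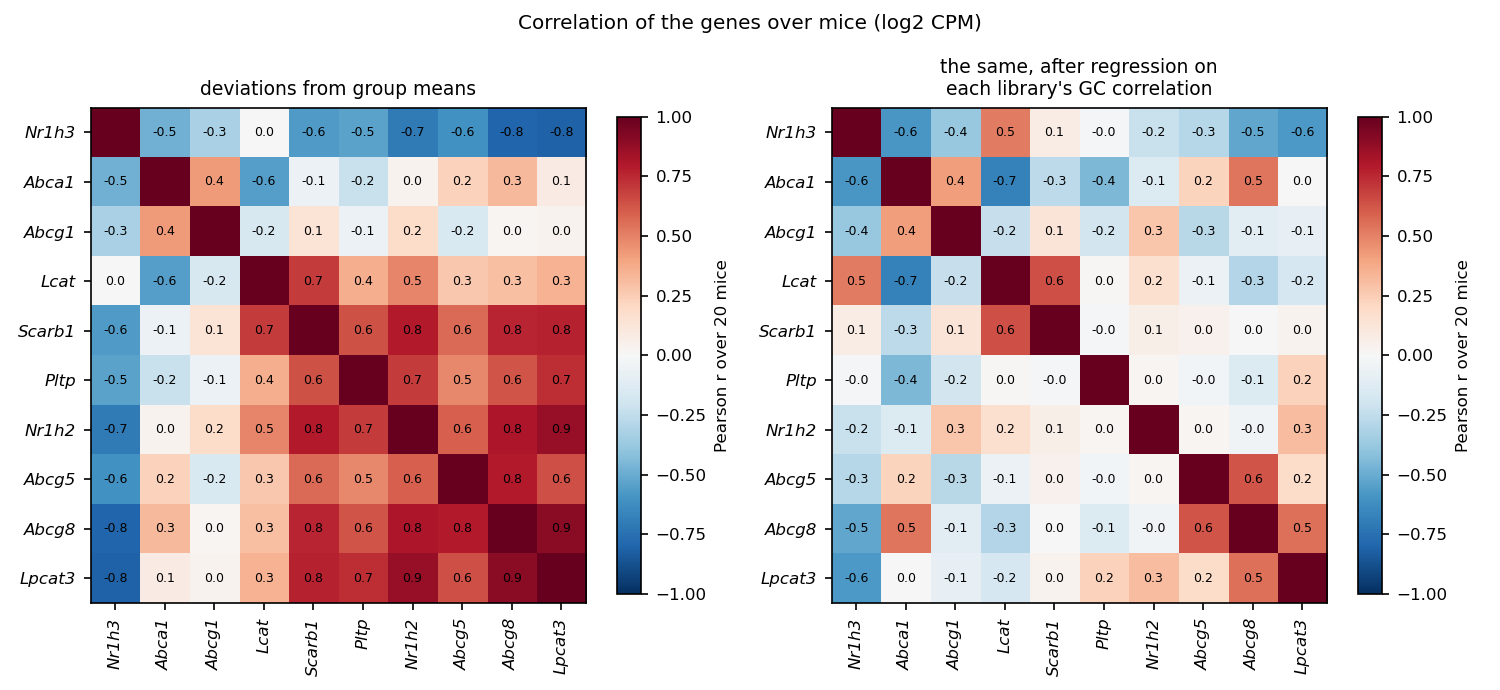
Pearson r between each pair of the 10 genes over 20 mice, for deviations of log2 CPM from the group means (left) and after regression on the GC correlation of each library (right). The block of positive values around Lpcat3, Abcg8 and Nr1h2 on the left loses most of its depth on the right, where Abcg5 with Abcg8 keeps 0.63. The row of Nr1h3 changes unevenly. It goes from -0.70 to -0.22 with Nr1h2, from -0.81 to -0.57 with Lpcat3 and from -0.48 to -0.58 with Abca1.

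Marker levels of other cell types also moved with some members. The mean log2 CPM of 7 sinusoidal endothelial markers correlated with Abcg8 at r = 0.73, Lpcat3 at 0.63, Nr1h2 at 0.62, Abcg5 at 0.59 and Nr1h3 at -0.70 (adjusted permutation p from 0.00283 to 0.0321). Spearman rho was 0.61 to 0.70 for these 4 and -0.69 for Nr1h3, and r without the 2 farthest mice was 0.52 to 0.69 and -0.69. In the 13 mice of positive GC correlation r was lower, 0.25 to 0.54 for the 4 and -0.55 for Nr1h3. In the other 7 mice it was -0.09 for Abcg8, 0.11 for Abcg5, 0.17 for Lpcat3, 0.29 for Nr1h2 and -0.62 for Nr1h3. The sum of those markers ran from 99.4 to 134 TPM in combination mice, 117 to 142 in rosuvastatin mice, 99.8 to 127 in GGOH mice and 85.9 to 136 in vehicle mice. Lcat followed the 5 hepatocyte markers at r = 0.66 (adjusted permutation p = 0.00702, rho = 0.66), with 0.66 without the 2 farthest mice 0.82 in the 13 mice and 0.69 in the 7. The 8 Kupffer cell markers, from cells that also express Nr1h3, followed Nr1h3 at r = 0.55 (adjusted permutation p = 0.0498, rho = 0.58), with 0.41 without the 2 farthest mice, 0.59 in the 13 mice and -0.02 in the 7. No marker of these 3 lists was at 0 everywhere, and the part of cell composition in the members' values was not tested.

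The genes most like each member were taken as the highest Pearson r of log2 CPM deviations from the group means over 20 mice, among 10498 genes. These were Fam53c for Nr1h2 (r = 0.94), Lsm4 for Nr1h3 (0.96), Marchf6 for Abca1 (0.90), Nckap1l for Abcg1 (0.80), Chst15 for Abcg5 (0.87), Trim28 for Abcg8 (0.96), Tm9sf4 for Lpcat3 (0.97), Btbd2 for Scarb1 (0.93), Pa2g4 for Lcat (0.93) and Elovl1 for Pltp (0.90). No member was the gene most like another. The closest other member ranked 37 for Abcg5, 91 for Nr1h2, 119 for Abcg8, 207 for Lpcat3, 1205 for Abca1 and 5051 for Nr1h3 among those genes. The third gene for Abcg1 was Soat1, a cholesterol acyltransferase (0.77).

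Other genes of the pathway were counted from lists chosen, like the members, with earlier results known, and none of their genes passed the edgeR test in any of the 8 comparisons. Of 14 further LXR targets, 6 were higher in rosuvastatin than in vehicle mice, and the smallest p was that of Fasn, the fatty acid synthase, at 0.95 ± 0.40 (unadjusted p = 0.0262, edgeR adjusted p = 0.973). In GGOH against vehicle mice 5 of the 14 were higher, and Srebf1, the lipogenic transcription factor SREBP1, was at -0.82 ± 0.38 (unadjusted p = 0.0407, edgeR adjusted p = 1.00). In combination against GGOH mice 10 of the 14 were higher, with Mlxipl, the carbohydrate response factor ChREBP, at 1.07 ± 0.34 (unadjusted p = 0.00530, edgeR adjusted p = 0.348).

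Of 10 LXR partners and coregulators, which include the retinoid X receptors, 9 were higher in combination than in GGOH mice. Against vehicle mice, 1 of 10 was higher with GGOH and 2 of 10 with rosuvastatin. The combination against rosuvastatin and the combination against vehicle each gave 7 of 10 higher. Of all genes, 50.9, 46.9, 47.3, 52.6 and 50.8% were higher in these comparisons, in that order. Of 6 oxysterol enzymes 4 were tested. Cyp39a1, an oxysterol 7-alpha-hydroxylase, was at -0.66 ± 0.18 in combination against GGOH mice (unadjusted p = 0.00127, edgeR adjusted p = 0.348). The 11 HDL genes had medians between -0.14 and -0.03 in the 8 comparisons, and the 13 genes of cholesterol trafficking had medians between -0.08 and 0.14.

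For scale, 11 targets of SREBP2, the sterol-sensing factor that raises cholesterol synthesis and uptake, had a median of 1.03 for rosuvastatin against vehicle with 11 of 11 higher, where the LXR members had 0.17 with 8 of 10 higher. For the combination against rosuvastatin the medians were -0.90 for the SREBP2 targets, 1 of 11 higher, and -0.03 for the LXR members. The sets lay closer for the combination against vehicle, with medians of 0.17 for the SREBP2 targets and 0.15 for the LXR members. For the combination against GGOH the medians were 0.73 and 0.30. The SREBP2 medians are those of the edgeR fit with equal weights and were not recomputed under the alternatives. The 2 sets share their mice and were not tested against each other.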

How the data were processed

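Per the labels' protocols, RNA was purified on RNeasy columns and poly(A) libraries were made with TruSeq chemistry and read in pairs on a NovaSeq. The submitters' processing notes name GRCm38 as the build and, as tools, kallisto 0.44.0, bcl2fastq 2.19 and DESeq2. The authors deposited estimated counts and TPM per gene. An entry without a name, 0.00801 to 0.0157% of counts, was left out. Rounded counts went into the quasi-likelihood test of edgeR 4.0.16 under R 4.3.3 (TMM, default filter, 12789 genes, 1 group-means model of 20 libraries), with Benjamini-Hochberg adjustment over all genes at 0.05. The biological coefficient of variation was 0.300, and the scripts were tested on simulated data. Fold changes are fitted ones with SE from the F statistic. TPM are the authors' and carry no TMM factor (0.761 to 1.25). limma 3.58.1 and DESeq2 1.42.0 served alternatives. GC content was known for 98.4% of tested genes. Correlations used log2 CPM and 100000 two-sided permutations.

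The members, lists, tests and alternatives were chosen with earlier results of these data known. All members are named; other genes are the 4 or fewer of a list with the smallest p in a comparison, and the genes most like a member. The labels do not say how mice were housed or processed, so p-values measure the spread between these samples. Same-numbered mice of different groups did not deviate together (mean correlations -0.12 to 0.14), so numbers were not used as pairs. No 2 libraries held identical values, and replicates differed by more than sampling noise (chi-square per degree of freedom 50.9 to 496). Alternatives were RLE factors, DESeq2, no or a stricter filter, only the groups compared, a replicate block, log2(TPM + 1) and log2(TPM + 0.1) in limma, quality weights, omission of 3 libraries, omission of each library, and a GC covariate added after the data were seen. Some genes that this rule names are not reported here.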

Additional observations from a re-analysis of the deposited data

Results flagged for a closer look

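In 2 of the 40 sets of 5 values (10 genes in 4 groups), 1 mouse stood apart from the other 4 by Dixon's test, which is the number that chance gives in 40 sets. Nr1h3 stood at 103 TPM in rosuvastatin mouse 1, against 59.2 to 71.1 TPM in the other 4 rosuvastatin mice. Abcg5 stood at 20.8 TPM in combination mouse 3, against 10.9 to 12.5 TPM in the other 4 combination mice. The test was run on TPM only, and both mice stood less far apart in CPM with the TMM factor. There Nr1h3 was at 180 in rosuvastatin mouse 1, against 78.8 to 114 in the other 4. Abcg5 was at 37.5 CPM in combination mouse 3, against 22.3 to 30.9 in the other 4. No interaction of the compounds passed for any member, the smallest unadjusted p being that of Abca1 at 0.126 (edgeR adjusted p = 0.999).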

How the results depend on the processing

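Across the alternatives, 2450 estimates for the members were recomputed, of which 5 passed the threshold, all with quality weights for rosuvastatin averaged over GGOH. The sign changed in 184, in 15 where the estimate exceeded its SE and in 3 where it exceeded 2 SE, these 3 with the GC covariate, and the cause was not tested. The replicate block changed 4 signs of 80 and passed no member. Counts over all genes rose with DESeq2 to 2 for rosuvastatin against vehicle, 1 for the combination against rosuvastatin, 5 for the combination against vehicle and 4 for GGOH averaged over rosuvastatin. Without the filter 1 gene passed for the combination against rosuvastatin and 1 against vehicle, as with log2(TPM + 1), and 1 against vehicle with log2(TPM + 0.1). Leaving out 1 library gave 0 to 1 for the combination against rosuvastatin, 0 to 1 against vehicle and 0 to 2 for GGOH averaged over rosuvastatin. In that last comparison 0 genes passed with the replicate block, 0 after removal of vehicle mouse 1 with combination mice 2 and 3, 2 with the GC covariate and 3 with quality weights. Quality weights gave 1594 genes for rosuvastatin averaged over GGOH, against 0 with equal weights. The 22 correlated pairs became 34 with log2(TPM + 1); over deviations from the group means they numbered 22, and 3 once those were regressed on the GC correlation. Without vehicle mouse 1, 18 of 80 member estimates moved by more than their SE and the smallest adjusted p in edgeR was 0.0810. Abcg1 had the fewest counts, 25 to 102.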
